A study of Mus musculus with 16 samples.

Results

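The odorant receptors of mouse chromosome 11 were taken as the array's probe sets whose identifier places them on chromosome 11 and whose symbol is Olfr followed by a number, with or without a pseudogene suffix. This gave 80 receptors, each with 1 probe set and each a separate gene, of 1090 odorant receptors on the array and 19505 genes tested. The symbols of 2 of them, Olfr1372-ps1 and Olfr75-ps1, carry the suffix. All 80 matched a gene on chromosome 11 of the reference gene table (GRCm38.p6), and the order along the chromosome comes from it.

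The study measured RNA of sorted olfactory mucosa cells on Clariom S arrays, to find the receptors of the neurons that bourgeonal, a floral-smelling aldehyde, activates. The mice were C57BL/6 animals of both sexes, 7 to 12 weeks old, that carried an S100a5-tauGFP reporter. S100a5 encodes a calcium-binding protein whose RNA in olfactory neurons rises with activity, so the green label is meant to mark active cells; it follows the activity of a cell, whatever the stimulus. All 24 mice spent 40 hours alone in chambers with clean air at 3.1 L/min.

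From hour 26 the odor mice received bourgeonal and the vehicle mice received filtered air, each for 10 seconds every 20 minutes. Tissue of 3 mice was pooled per library, which gives 4 odor pools and 4 vehicle pools, each sorted into 1 library titled GFP- and 1 titled GFP+. The 16 libraries therefore fall into 4 groups of 4: odor titled GFP-, odor titled GFP+, vehicle titled GFP- and vehicle titled GFP+. The p-values below measure the spread between these pools of mice. The title and the cell type field of the labels name opposite gates for all 16 libraries. The groups follow the titles, and every gate ratio below is the level in the library titled GFP- over that in the library titled GFP+ of the same pool, on the log2 scale of the deposited values.

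Odorant receptors are G protein-coupled receptors in the cilia of olfactory sensory neurons. A mature neuron expresses 1 allele of 1 receptor gene and silences the rest, so the RNA level of a receptor in a sorted population follows how many neurons chose it and how much each of them makes. Receptor genes lie in clusters on many chromosomes, and the neighbours in a cluster are often close relatives. In humans the receptor OR1D2 is known to respond to bourgeonal; which mouse gene is closest to it was not examined.

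In 8 of 8 pools the gate ratio of S100a5 was above 0, with a mean of 1.02 ± 0.25 on the log2 scale (SD, n = 8 pools; exact sign-flip test, two-sided, p = 0.00781, the smallest possible). The gene behind the reporter was thus higher in the libraries titled GFP-, the opposite of what the titles say, while the cell type field calls these libraries GFP+. Which label is right is not settled here; if the cell type field holds, the libraries titled GFP- are the GFP+ cells, and higher and lower between the gates change places in every gate ratio below. Omp, a marker of mature olfactory neurons, had a mean log2 gate ratio of 0.04 ± 0.11. Vomeronasal receptor genes, which belong to another sensory organ, gave a background guide for each library, their 95th percentile, which ran between 4.29 and 4.97 on the log2 scale. In 74 of the 80 receptors the mean of at least one group lay above the highest of these guides. Whether a receptor's probes pick up RNA of close relatives was not tested.

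In vehicle pools 50 of the 80 receptors (62.5%) differed between the gates at an adjusted p under 0.05 (limma, Benjamini-Hochberg over all genes, two-sided), against 16.2% of all genes tested. Of these, 19 were higher in libraries titled GFP- (6.23% of all genes) and 31 were lower (9.95% of all genes). In odor pools 21 were higher (7.82% of all genes) and 29 were lower (10.2% of all genes), again 50 in all, against 18.1% of all genes. Calls in either direction were as common among the other 1010 odorant receptors, at 63% in vehicle pools and 66% in odor pools. Fewer neurons that chose a receptor and less RNA per neuron cannot be told apart in these pooled samples.

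Most receptors kept their side in both treatments. Of the 80, 17 were higher in libraries titled GFP- in both odor and vehicle pools (3.57% of all genes), 28 were lower in both (8.41% of all genes), 25 passed the threshold in neither, and 0 were called in opposite directions. In 19 receptors the gate ratio was above 0 in all 8 pools (9.74% of all genes), and in 30 it was below 0 in all 8 (10.6% of all genes). The 4 libraries of one gate lay entirely above the 4 of the other for 17 receptors higher in titled GFP- libraries of odor pools (9.17% of all genes) and for 29 lower there (10.1%), and for 14 higher (8.1%) and 29 lower (10.2%) in vehicle pools.

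The median log2 gate ratio of the 80 receptors was -0.34 in odor pools and -0.38 in vehicle pools, against 0.10 and 0.09 for all genes. The other 1010 odorant receptors had medians of 0.41 in odor pools and 0.29 in vehicle pools. Of them 40.2% were called higher and 25.8% lower in odor pools, and 36.5% higher and 26.4% lower in vehicle pools. Whether the chromosome 11 receptors differ from the other receptors in these shares was not tested. The split of higher and lower calls depends on the scale. Centring libraries on their own medians moved the median of all genes to 0.46 in odor pools and 0.44 in vehicle pools. The receptors' calls were then 27 higher and 26 lower in odor pools and 28 higher and 26 lower in vehicle pools. Over all genes that centring called 12174 of 19505 in odor pools and 12023 in vehicle pools, 87.3% of them higher in each treatment. The receptors' median was then 0.01 in odor pools and -0.03 in vehicle pools.

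**Figure D1:**
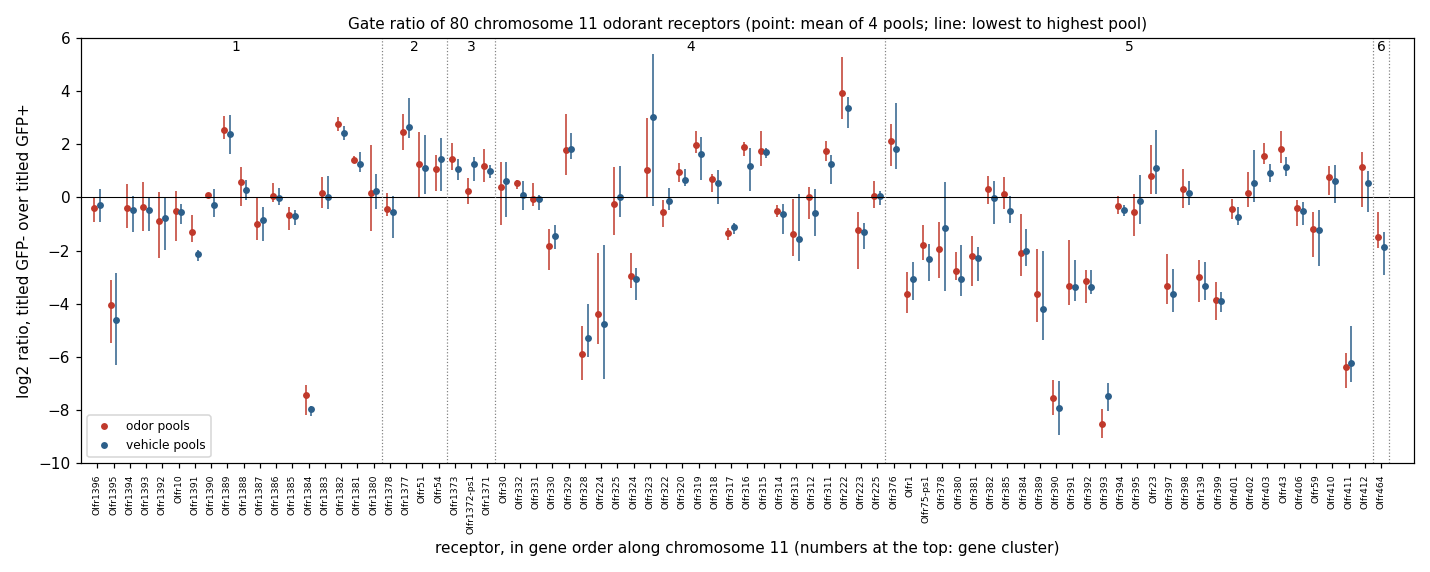
The vertical axis is the log2 gate ratio, titled GFP- over titled GFP+, and the horizontal axis lists the 80 receptors in their order along the chromosome; points are means of 4 odor pools (left of each pair) or 4 vehicle pools, and lines run from the lowest to the highest pool. Olfr1384, with ratios near -8, lies between Olfr1383, with ratios near 0, and Olfr1385. Olfr1385 was lower by far less, with -0.65 in odor pools and -0.69 in vehicle pools. The neighbours of Olfr390 (Olfr389 and Olfr391) were lower too. The odor and vehicle points of a receptor mostly lie close together.

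The receptors with the largest gate ratios below 0 were Olfr1384, Olfr390, Olfr393, Olfr411 and Olfr328, and all of them were far lower in libraries titled GFP- than in those titled GFP+. Olfr1384 had 5.42, 6.12, 5.17 and 5.60 in odor libraries titled GFP-, against 12.51, 13.17, 13.34 and 13.10 in odor libraries titled GFP+. In vehicle pools Olfr1384 had 5.32, 5.40, 5.37 and 4.77 in libraries titled GFP-, against 13.17, 13.25, 13.28 and 13 in libraries titled GFP+. The gates lay several log2 units apart with no overlap, and the 4 libraries of each group were close to each other. Its ratio was -7.45 ± 0.18 (SE) in odor pools (limma, adjusted p = 4.56e-09) and -7.96 ± 0.18 in vehicle pools (adjusted p = 6.32e-09), that is 174-fold and 249-fold lower in libraries titled GFP-. The guides of vehicle libraries titled GFP- ran from 4.81 to 4.97, and Olfr1384 was below the guide in 1 of these 4 libraries. The vehicle fold thus rests on values near background.

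Olfr393 gave 6.12, 7.29, 6.67 and 6.11 in odor libraries titled GFP-, against 15.18, 15.26, 15.34 and 14.56 in odor libraries titled GFP+. The vehicle libraries titled GFP- gave 6.93, 8.19, 6.82 and 7.29 for Olfr393, against 14.44, 15.18, 14.86 and 14.61 in vehicle libraries titled GFP+. All 8 libraries titled GFP+ were far above all 8 titled GFP-. The ratio was -8.53 ± 0.20 (SE) in odor pools (limma, adjusted p = 4.12e-09) and -7.47 ± 0.20 in vehicle pools (adjusted p = 1.02e-08).

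Olfr390 was at the background guide on one side of the sort. It read 4.23, 4.26, 4.76 and 4.09 in odor libraries titled GFP-, against 11.76, 11.11, 12.94 and 11.77 in odor libraries titled GFP+. It read 5.0, 4.41, 3.46 and 3.92 in vehicle libraries titled GFP-, against 11.92, 12.00, 12.39 and 12.09 in vehicle libraries titled GFP+. The values titled GFP- were below the guide in 4 of 4 odor libraries and in 3 of 4 vehicle libraries, so in odor pools only a bound can be given: Olfr390 was at least 136-fold lower in libraries titled GFP- (limma, adjusted p = 4.97e-08). The fitted ratio in vehicle pools was -7.90 (adjusted p = 4.59e-08).

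Olfr411 averaged 6.22 ± 0.38 in odor libraries titled GFP- and 12.58 ± 0.38 in those titled GFP+, and 6.43 ± 0.74 in vehicle libraries titled GFP- and 12.65 ± 0.41 in those titled GFP+ (SD, n = 4 each). Olfr328 averaged 6.94 ± 0.31 in odor libraries titled GFP- and 12.84 ± 0.64 in those titled GFP+, and 7.17 ± 0.33 in vehicle libraries titled GFP- and 12.45 ± 0.61 in those titled GFP+. For both receptors the gates did not overlap in either treatment. Their ratios were -6.37 and -5.90 in odor pools and -6.22 and -5.29 in vehicle pools (limma, adjusted p at most 1.76e-06).

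Among the receptors with smaller falls were Olfr224, Olfr1395, Olfr389, Olfr399 and Olfr397, with ratios of -3.35 to -4.40 in odor pools and -3.62 to -4.75 in vehicle pools. All 5 passed the threshold in both treatments with no overlap of the gates. Their spread differed. Olfr1395 ranged from 9.31 to 11.72 among odor libraries titled GFP- and from 14.77 to 14.95 among odor libraries titled GFP+, and it ranged from 8.61 to 11.68 among vehicle libraries titled GFP- and from 14.51 to 14.94 among vehicle libraries titled GFP+. The spread of Olfr1395 was the wider in libraries titled GFP- in both treatments. Olfr397 was below the guide in all 4 vehicle libraries titled GFP-, where it was at least 9.66-fold lower (limma, adjusted p = 1.59e-05). It was below the guide in 2 of 4 odor libraries titled GFP-, and Olfr224 in 2 of 4 vehicle libraries titled GFP-. Olfr399 was below the guide in 1 of 4 odor and 2 of 4 vehicle libraries titled GFP-. In these cases the true falls may be larger than the fitted ones.

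**Figure D2:**
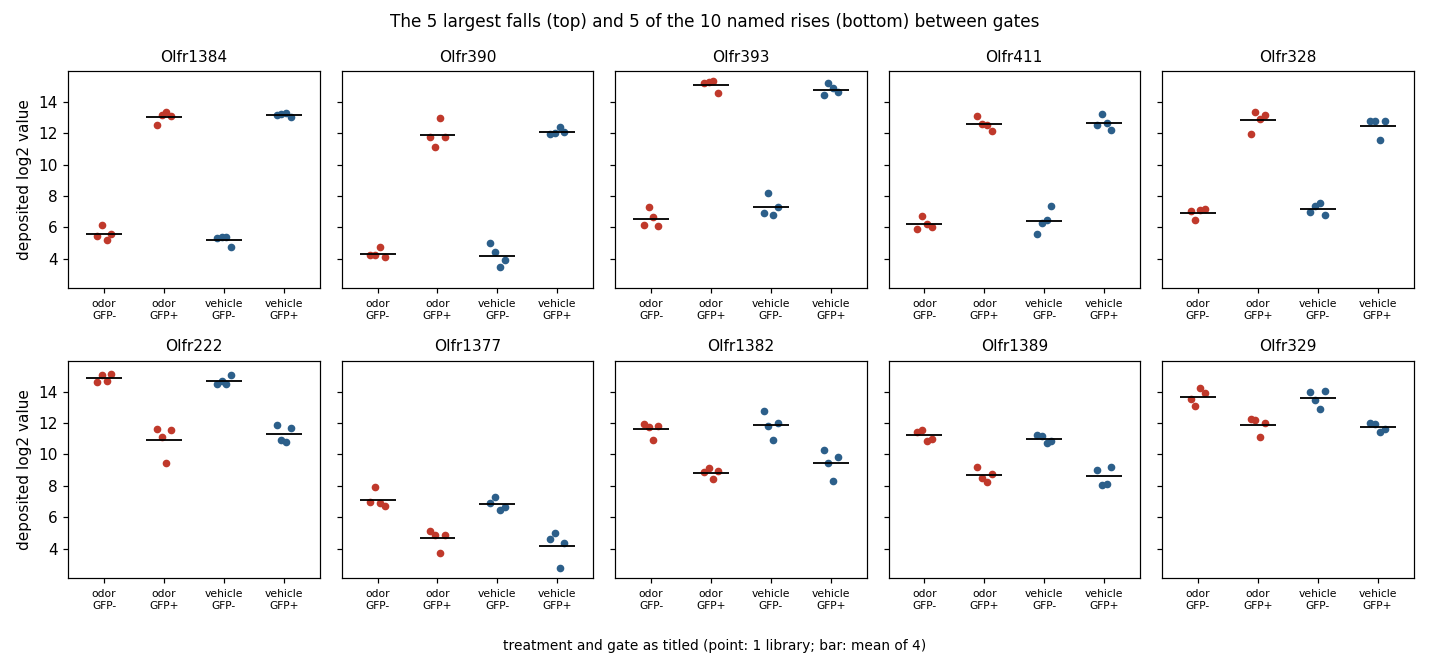
Deposited log2 values (vertical axis) of 10 receptors in every library, grouped by treatment and gate as titled, with a bar at the mean of 4 libraries; the top row holds the 5 largest falls and the bottom row 5 of the 10 named rises. In each panel the points titled GFP- and GFP+ of a treatment do not overlap, and odor and vehicle points of the same gate cover similar ranges.

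The largest gate ratio above 0 was that of Olfr222. Its values were 14.60, 15.04, 14.69 and 15.14 in odor libraries titled GFP-, against 11.64, 11.12, 9.43 and 11.58 in odor libraries titled GFP+. In vehicle pools Olfr222 had 14.46, 14.65, 14.50 and 15.07 in libraries titled GFP-, against 11.85, 10.89, 10.81 and 11.66 in libraries titled GFP+. The values titled GFP- lay close together, while odor pool 3 was low among those titled GFP+. The ratio was 3.93 ± 0.32 (SE) in odor pools (limma, adjusted p = 8.19e-06) and 3.37 ± 0.32 in vehicle pools (adjusted p = 2.87e-05), or 15.2-fold and 10.3-fold higher in libraries titled GFP-.

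Olfr1377, Olfr1382 and Olfr1389 were higher by a similar step. Olfr1377 averaged 7.11 ± 0.55 in odor libraries titled GFP- and 4.67 ± 0.62 in those titled GFP+, and 6.82 ± 0.35 in vehicle libraries titled GFP- and 4.18 ± 0.99 in those titled GFP+ (SD, n = 4 each). The values of Olfr1377 titled GFP+ were near the guide and below it in 1 of 4 libraries of each treatment, so its true ratio may be larger. Olfr1382 had 11.92, 11.77, 10.92 and 11.80 in odor libraries titled GFP-, against 8.90, 9.10, 8.44 and 8.94 in odor libraries titled GFP+, and its vehicle values were 12.77, 11.83, 10.94 and 11.97 in libraries titled GFP-, against 10.29, 9.45, 8.28 and 9.81 in libraries titled GFP+. The level of Olfr1382 moved from pool to pool in both gates at once, so its ratio had a small error: 2.76 ± 0.13 (SE) in odor pools and 2.42 ± 0.13 in vehicle pools (limma, adjusted p = 5.13e-07 in vehicle pools). Olfr1389 had ratios of 2.53 in odor pools and 2.40 in vehicle pools (adjusted p = 2.86e-05), and its gates did not overlap.

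Olfr329, Olfr376, Olfr315, Olfr319 and Olfr54 were higher in libraries titled GFP- in both treatments, with ratios of 1.06 to 2.12 in odor pools and 1.43 to 1.83 in vehicle pools. The values titled GFP+ of Olfr376 were below the guide in 3 of 4 libraries of each treatment, where the true ratio may be larger than the fitted one. The call of Olfr54 was the weakest of these, with adjusted p = 0.0402 in odor pools and 0.00963 in vehicle pools (limma). Its gates overlapped in both treatments, its vehicle call was lost without vehicle pool 3 (adjusted p = 0.053) or 4 (adjusted p = 0.0505), and both calls were lost without the pool as a block. Its odor call was lost without odor pool 2 (adjusted p = 0.162), 3 (0.0875) or 4 (0.149) and without vehicle pool 2 (0.0561).

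The call of Olfr323 in vehicle pools rested on 3 of the 4 pools. Its values were 10.01, 4.73, 4.10 and 4.82 in odor libraries titled GFP-, against 7.01, 4.10, 4.12 and 4.24 in odor libraries titled GFP+. In vehicle libraries titled GFP- it had 8.62, 9.16, 9.94 and 4.01, against 5.96, 4.90, 4.54 and 4.32 in vehicle libraries titled GFP+. Odor pool 1 and vehicle pools 1, 2 and 3 were high in the gate titled GFP-, and the remaining pools were near the guide in both gates. The vehicle ratio was 3.00 ± 0.77 (SE; limma, adjusted p = 0.0231), with adjusted p = 0.0583 without vehicle pool 1, 0.105 without pool 2 and 0.107 without pool 3. That call was also lost without the pool as a block (limma, adjusted p = 0.127) and with the trend and robust options of eBayes (0.087). The odor ratio was 1.04 ± 0.77 (adjusted p = 0.398), and the difference between treatments did not pass the threshold (log2 difference -1.96, adjusted p = 0.872).

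The 80 receptors lie in 6 groups along the chromosome when a new cluster starts wherever neighbours are over 1 Mb apart in the reference table. The first, Olfr1396 to Olfr1380, holds 18 receptors, and its calls in vehicle pools were 3 higher and 5 lower, beside 6.23% higher and 9.95% lower over all genes. The small clusters Olfr1378 to Olfr54 (4 receptors) and Olfr1373 to Olfr1371 (3 receptors) had 2 and 3 receptors higher in vehicle pools and 0 lower. Cluster 4, Olfr30 to Olfr225, holds 24 receptors and was even, with 8 higher and 8 lower in vehicle pools.

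The cluster from Olfr376 to Olfr412 held most of the falls. Of its 30 receptors 5 were higher and 16 lower in odor pools, and 3 were higher and 17 lower in vehicle pools. Over all genes 7.82% were higher and 10.2% lower in odor pools, and 6.23% were higher and 9.95% lower in vehicle pools. Its median log2 ratio was -1.49 in odor pools and -1.19 in vehicle pools. Olfr464, which stands alone, was lower in both treatments, with ratios of -1.48 in odor pools and -1.87 in vehicle pools (limma, adjusted p = 0.00352 and 0.000768). These counts describe the clusters, and differences between clusters were not tested.

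**Figure D3:**
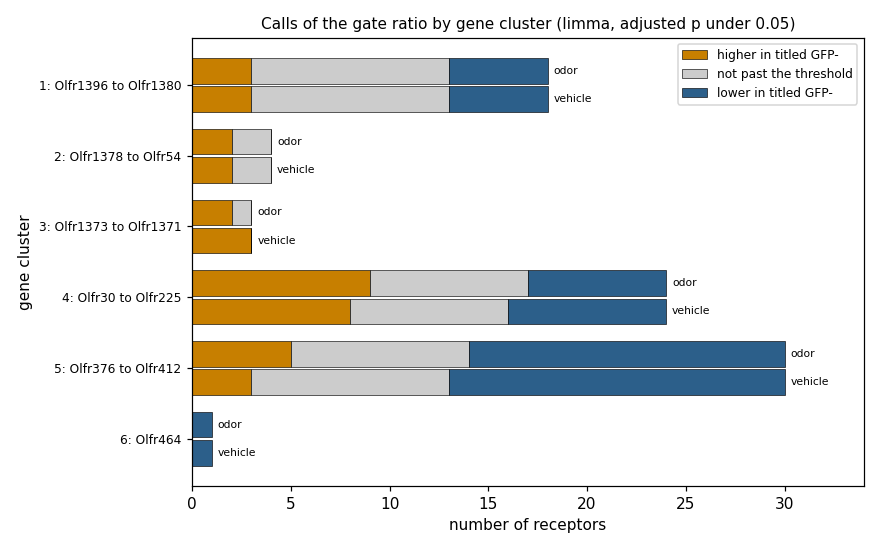
Number of receptors (horizontal axis) of each gene cluster (vertical axis) that were higher in titled GFP- libraries, not past the threshold, or lower, with the odor bar above the vehicle bar. The cluster from Olfr376 to Olfr412 has 16 of 30 receptors lower in odor pools and 17 of 30 in vehicle pools, while the small clusters 2 and 3 have none lower.

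The receptors at the ends of the clusters had unlike ratios. Olfr1396, Olfr1380, Olfr1378, Olfr30 and Olfr225 passed the threshold in neither treatment, with ratios of -0.54 to 0.62 in vehicle pools. Olfr225 was below the guide in both gates. Olfr1373 and Olfr1371 were higher in both treatments, with ratios of 1.43 and 1.17 in odor pools and 1.07 and 1.00 in vehicle pools. Olfr412 had 1.15 in odor pools (limma, adjusted p = 0.0472) and 0.54 in vehicle pools (adjusted p = 0.349). Its odor call was lost in 6 of the 8 fits that left out 1 pool, those missing pool 2, 3 or 4 of either treatment (adjusted p between 0.0588 and 0.172), and with libraries centred on the median of all odorant receptors (adjusted p = 0.0589).

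The longest run of neighbours with one direction in vehicle pools was 7 receptors, Olfr384, Olfr389, Olfr390, Olfr391, Olfr392, Olfr393 and Olfr394, all lower in libraries titled GFP-. The run was picked out after the values were seen. Their ratios in vehicle pools were not alike: Olfr390 and Olfr393 had -7.90 and -7.47, Olfr389 and Olfr392 had -4.18 and -3.36, Olfr384 had -2.01, and Olfr394 had -0.49. The vehicle call of Olfr394 (adjusted p = 0.0346) was lost in 6 of the 8 fits that left out 1 pool, all but those without odor pool 1 or 4 (adjusted p between 0.0508 and 0.133). It was also lost without the pool as a block (0.265) and with libraries centred on their own medians (0.387), and without it the run has 6 receptors. In odor pools Olfr394 did not pass the threshold (ratio -0.32, adjusted p = 0.141, limma), and the other 6 did. Olfr391 was below the guide in all 8 libraries titled GFP-, so it was at least 4.43-fold lower in odor pools and at least 4.40-fold lower in vehicle pools.

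Upstream sequences were looked at for these neighbours because they were lower together. RefSeq promoter windows (GRCm38.p6) exist for 68 of the 80 receptors, but in 45 of the 69 windows the annotated start is the ATG of the coding sequence, so these windows need not hold a promoter. Windows of 9 receptors come from models that span over 2 kb and start elsewhere, and 250 bases ahead of the annotated start are shown for 6 of these: the 3 of the run, and for comparison Olfr1 and Olfr224, also lower in libraries titled GFP-, and Olfr332, which was called higher in odor pools and not called in vehicle pools. Capitals mark TAATTG or TAATTA, letters bound by homeodomain factors such as Lhx2. The windows lie on the minus strand at chr11:73780590-73780839 (Olfr389), chr11:73802985-73803234 (Olfr391), chr11:73816878-73817127 (Olfr392), chr11:73399496-73399745 (Olfr1), chr11:58570569-58570818 (Olfr224) and chr11:58492500-58492749 (Olfr332).
Olfr389: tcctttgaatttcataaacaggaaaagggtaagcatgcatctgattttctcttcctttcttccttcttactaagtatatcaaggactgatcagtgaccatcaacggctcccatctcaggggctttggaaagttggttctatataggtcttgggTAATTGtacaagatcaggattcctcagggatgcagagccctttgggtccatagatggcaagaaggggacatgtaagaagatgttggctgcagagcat
Olfr391: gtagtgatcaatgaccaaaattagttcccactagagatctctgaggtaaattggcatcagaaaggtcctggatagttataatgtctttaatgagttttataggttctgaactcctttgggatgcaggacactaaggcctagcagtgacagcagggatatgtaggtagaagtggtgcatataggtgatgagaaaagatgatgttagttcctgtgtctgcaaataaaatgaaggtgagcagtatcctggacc
Olfr392: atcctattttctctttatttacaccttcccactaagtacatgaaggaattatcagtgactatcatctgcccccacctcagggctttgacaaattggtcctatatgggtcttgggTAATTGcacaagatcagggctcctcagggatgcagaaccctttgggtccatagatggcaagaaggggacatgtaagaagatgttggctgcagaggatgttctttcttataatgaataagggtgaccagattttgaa
Olfr1: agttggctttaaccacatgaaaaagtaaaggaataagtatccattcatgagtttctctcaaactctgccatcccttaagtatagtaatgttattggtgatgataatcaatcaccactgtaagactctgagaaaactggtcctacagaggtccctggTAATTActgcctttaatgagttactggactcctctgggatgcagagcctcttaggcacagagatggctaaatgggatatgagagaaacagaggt
Olfr224: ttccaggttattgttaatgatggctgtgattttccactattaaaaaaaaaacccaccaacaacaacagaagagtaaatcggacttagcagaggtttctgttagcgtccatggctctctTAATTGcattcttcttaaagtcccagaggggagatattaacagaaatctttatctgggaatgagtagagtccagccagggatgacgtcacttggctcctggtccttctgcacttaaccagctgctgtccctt
Olfr332: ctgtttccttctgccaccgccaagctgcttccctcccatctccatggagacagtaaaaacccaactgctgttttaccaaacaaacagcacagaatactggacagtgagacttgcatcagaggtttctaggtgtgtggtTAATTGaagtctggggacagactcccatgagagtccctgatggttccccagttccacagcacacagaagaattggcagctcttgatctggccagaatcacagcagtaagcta

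Of the usable windows those of Olfr389 and Olfr392 were the most alike. In a global alignment that allowed gaps 183 bases were identical, which is 73.2% of 250. Olfr330 and Olfr224, in another cluster, were nearly the same, with 182 bases (72.8%). Olfr391 of the run shared 52.8% with Olfr389 and 57.6% with Olfr392. The least alike pair, Olfr378 and Olfr391, still shared 47.6%. TAATTG starts 97 bases ahead of the annotated start in Olfr389 and 136 in Olfr392. It starts 132 bases ahead in Olfr224 and 112 in Olfr332, and TAATTA starts 94 bases ahead in Olfr1. Neither is in the window of Olfr391. Searched on both strands, TAATTG was in 4 of the 10 usable windows of the chromosome 11 receptors, in 34.8% of 92 such windows of other receptors and in 7.17% of all 32851 windows. TAATTA, which reads the same on both strands, was in 2 of the 10, in 19.6% of the 92 and in 4.84% of all. CCCNNGGG, the letters of Ebf sites, was in 1 of the 10, that of Olfr330, in 17.4% of the 92 and in 11.8% of all, and no match overlapped another. TAATTG occurs ahead of receptors that were lower (Olfr389, Olfr392, Olfr224) and of Olfr332, which was higher in odor pools and not called in vehicle pools. Usable but not shown were the windows of Olfr330, Olfr59 and Olfr378. Olfr330 and Olfr59, lower in both treatments, have neither TAATTG nor TAATTA. Olfr378, lower in odor pools and not called in vehicle pools, has TAATTA 88 bases ahead. Olfr59 has more than 1 of the 10 windows, and they overlap. A match is a description of the letters, not a site.

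Of 74 pairs of adjacent receptors, 27 had both members called in vehicle pools, 20 in the same direction and 7 in opposite directions. Some of the 20 lie in the run from Olfr384 to Olfr394, and 31 of the 50 calls were lower. Whether adjacent receptors share a direction more often than other pairs was not tested. The pair with the widest gap was Olfr1384 and Olfr1383, which differed by 7.98 log2 units of gate ratio. Olfr1383 had a ratio of 0.15 in odor pools and 0.02 in vehicle pools, with the gates overlapping. Olfr329 and Olfr328 had 1.83 and -5.29 in vehicle pools, and Olfr376 and Olfr1 had 1.80 and -3.06, both pairs called in opposite directions. Olfr411 lay between Olfr410 and Olfr412, whose ratios in vehicle pools were 0.62 and 0.54 and did not pass the threshold. Of these, Olfr1383, Olfr410 and Olfr1 lie outside the rule for named receptors and were picked with their values in view.

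Olfr403 and Olfr43 are direct neighbours with similar gate ratios. Olfr403 had 12.87, 13.25, 13.07 and 13.34 in odor libraries titled GFP-, against 11.46, 11.67, 11.03 and 12.08 in odor libraries titled GFP+. Olfr43 had 12.78, 13.17, 13.07 and 13.21 in odor libraries titled GFP-, against 11.12, 11.36, 10.58 and 11.92 in odor libraries titled GFP+. Their gate ratios differed by 0.0177 to 0.457 within a pool, and that of Olfr43 was the larger in 8 of 8 pools. Whether their probes share sequence was not tested.

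The receptors named for their mean signal over all libraries were Olfr394, Olfr332, Olfr1396, Olfr222 and Olfr1392. Levels of different probe sets are not comparable, so no order is drawn from them. Apart from Olfr222 their gate ratios were small, from -0.91 to 0.55 in odor pools and from -0.78 to 0.11 in vehicle pools. Olfr332 averaged 14.43 ± 0.31 in odor libraries titled GFP- and 13.87 ± 0.21 in those titled GFP+, and 13.92 ± 0.50 in vehicle libraries titled GFP- and 13.81 ± 0.14 in those titled GFP+ (SD, n = 4 each). It was called higher in libraries titled GFP- in odor pools (adjusted p = 0.0462, limma). That call was lost in 6 of the 8 fits that left out 1 pool, those without any 1 odor pool or vehicle pool 2 or 4 (adjusted p between 0.06 and 0.148), and without the pool as a block (0.0982). At the other end, the means of both gates were below the guide for Olfr1390, Olfr225, Olfr395 and Olfr401 in both treatments and for Olfr385 in odor pools. Olfr401 was nevertheless called lower in vehicle pools (-0.72, adjusted p = 0.0155, limma), where both values are close to background.

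The difference of the gate ratio between odor and vehicle pools asks for which receptors the size of the ratio differed with bourgeonal. None of the 80 receptors passed the threshold (0 of 80, limma; 0% of all genes, 0 of 19505), and their smallest adjusted p was 0.823. At an unadjusted p under 0.05 there were 5 of the 80 receptors (6.25%), 7.33% of the other receptors and 1109 of all genes (5.69%). The median difference was 0.13 for the 80 receptors, 0.13 for the other receptors and 0.02 for all genes. On simulated data with the same number of libraries, the fit recovered 22.4% of differences of 1 on the log2 scale and 88.1% of differences of 2.

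**Figure D4:**
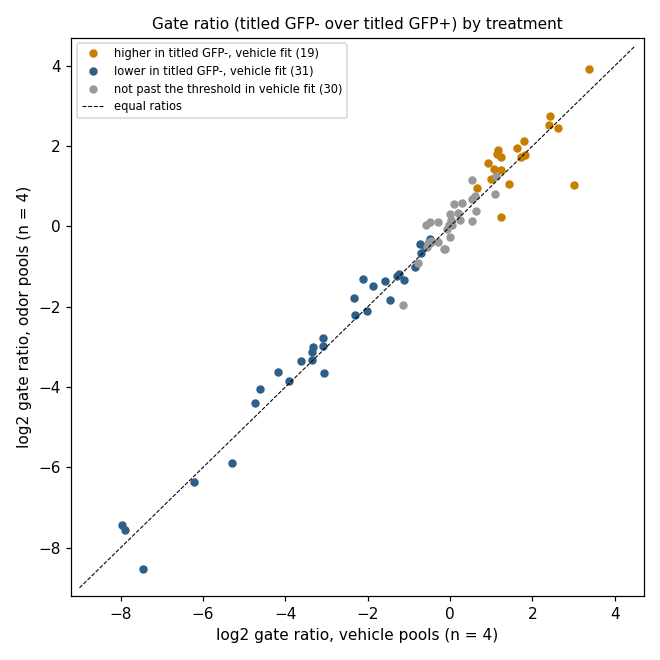
Log2 gate ratio of the 80 receptors in odor pools (vertical axis) against vehicle pools (horizontal axis), each the mean of 4 pools; colours give the call in vehicle pools and the dashed line marks equal ratios. The points follow the line over its whole length, and Olfr323 (3.00 in vehicle pools) lies farthest from it.

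The 5 receptors with the smallest p for the difference were Olfr1372-ps1, Olfr393, Olfr1391, Olfr403 and Olfr43. They were picked from the 80 by this difference, so their values are a description and how far the pools lie apart is no evidence of a difference. Olfr1391 had gate ratios of -1.68, -1.57, -0.65 and -1.31 in odor pools 1 to 4, against -1.98, -2.40, -2.05 and -2.02 in vehicle pools 1 to 4. Every odor pool was above every vehicle pool, and the difference was 0.81 with a 95% interval of 0.28 to 1.35. The fit across all genes gave adjusted p = 0.823 (limma). The receptor was lower in libraries titled GFP- in both treatments.

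Olfr403 had gate ratios of 1.41, 1.58, 2.04 and 1.27 in odor pools 1 to 4, against 0.76, 1.09, 1.25 and 0.58 in vehicle pools 1 to 4. The lowest odor pool was just above the highest vehicle pool, and the difference was 0.65 (95% interval 0.15 to 1.16; limma, adjusted p = 0.823). Its neighbour Olfr43 differed by 0.66 (95% interval 0.06 to 1.26), and its pools overlapped.

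Olfr1372-ps1 had gate ratios of -0.24, 0.33, 0.17 and 0.73 in odor pools 1 to 4, against 1.42, 1.42, 0.63 and 1.52 in vehicle pools 1 to 4. Olfr393 had -9.05, -7.97, -8.67 and -8.45 in odor pools, against -7.51, -6.99, -8.05 and -7.33 in vehicle pools. In both receptors the odor pools lay lower with 1 overlap, and the differences were -1.0 and -1.07. Neither passed the threshold over all genes (limma, adjusted p = 0.823 for both). Olfr1372-ps1 was called higher in vehicle pools (adjusted p = 0.00084, and 0.0506 without the pool as a block) and not in odor pools (adjusted p = 0.409), which on its own does not show that the treatments differ.

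**Figure D5:**
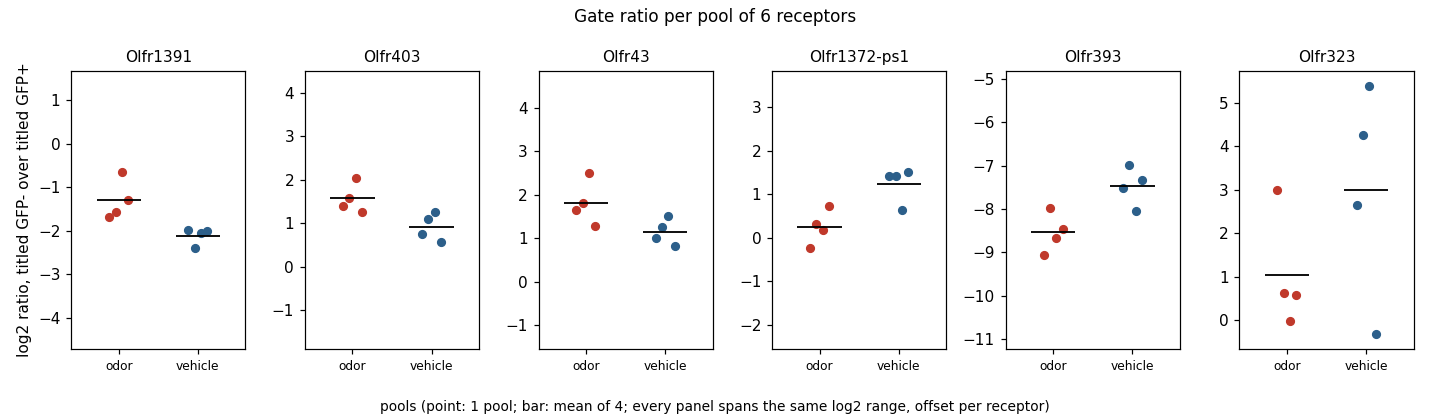
Log2 gate ratio (vertical axis) of 6 receptors in each odor pool and each vehicle pool, with a bar at the mean of 4; every panel spans the same range on the log2 scale at its own offset. Odor and vehicle pools are separate for Olfr1391 and Olfr403, overlap for Olfr43, Olfr1372-ps1 and Olfr393, and scatter widely for Olfr323.

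Levels in odor and vehicle libraries were set against each other within each gate, too. In libraries titled GFP- 0 of the 80 receptors passed the threshold (limma; 0% of all genes). At an unadjusted p under 0.05 there were 7 receptors (8.75%), 7.43% of the other odorant receptors and 869 genes (4.46%). In libraries titled GFP+ 0 of the 80 passed as well (0.0103% of all genes, 2 of 19505). There 5 receptors (6.25%), 7.33% of the other odorant receptors and 827 genes (4.24%) had an unadjusted p under 0.05. With the replicate number of the titles as a block the counts of receptors were again 0 in both gates and for the difference. The median log2 difference of the 80 receptors was 0.00 in libraries titled GFP- and -0.09 in libraries titled GFP+.

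The 3 receptors with the smallest p in each gate had lower values in odor libraries, and none passed. Among the other receptors at an unadjusted p under 0.05 in libraries titled GFP-, Olfr316 (0.61) and Olfr382 (0.45) had higher values in odor libraries. Olfr393 (-0.76) and Olfr322 (-0.54) had lower values there, with Olfr322 below the guide in 2 of 4 odor libraries titled GFP-. Olfr1381 had 10.18, 10.67, 10.59 and 10.50 in odor libraries titled GFP-, against 11.28, 11.15, 10.63 and 10.66 in vehicle libraries titled GFP-. It had 8.80, 9.31, 9.03 and 9.18 in odor libraries titled GFP+, against 10.03, 9.43, 9.57 and 9.71 in vehicle libraries titled GFP+. The odor values were lower in both gates, by -0.45 (95% interval -0.87 to -0.02; limma, adjusted p = 0.996) in libraries titled GFP- and -0.60 (-0.99 to -0.22; adjusted p = 0.999) in libraries titled GFP+. The others were Olfr380 and Olfr1385 (-0.45) in libraries titled GFP-, and Olfr1371 (-0.57) and Olfr398 (-0.72) in libraries titled GFP+. Olfr380 was below the guide in 4 of 4 odor libraries and in 2 of 4 vehicle libraries titled GFP-, so no difference is given for it.

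Genes that serve every receptor were compared in the same fits. Of 12 genes for receptor expression and trafficking, among them the transcription factors Lhx2 and Ebf1 to Ebf4 and the chaperones Rtp1 and Rtp2, 0 were called between the gates in odor or in vehicle pools (limma). Their median log2 ratio was 0.12 in odor pools and 0.06 in vehicle pools. Of 12 transduction genes 3 were higher in libraries titled GFP- in odor pools and 4 in vehicle pools, and 0 were lower. The 4 in vehicle pools were the phosphodiesterases Pde1c (0.64) and Pde4a (0.59), the ion exchanger Slc24a4 (0.49) and the chloride channel Ano2 (0.44).

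Of 6 activity-linked genes 4 were higher and 1 was lower in libraries titled GFP- in odor pools, and 4 were higher and 2 lower in vehicle pools. The 4 higher were S100a5 (0.95 in vehicle pools), Lrrc3b (1.71) and the adhesion genes Kirrel2 (1.11) and Pcdh10 (1.08). S100a5 is the gene behind the reporter used for the sort, so its rise is not independent of the gates. Lower in vehicle pools were the calcium-binding protein Calb2 (-4.64) and the adhesion gene Kirrel3 (-0.54).

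Markers of other cells moved with the gate as well. All 8 measured immune markers were lower in libraries titled GFP- in both treatments: their mean log2 level was 4.60 to 5.51 in odor libraries titled GFP- and 12.82 to 13.75 in those titled GFP+, and 4.19 to 5.35 in vehicle libraries titled GFP- and 12.37 to 13.75 in those titled GFP+. Ptprc, a surface protein of all white blood cells, averaged 4.33 in odor libraries titled GFP- and 9.59 in those titled GFP+, and 5.13 in vehicle libraries titled GFP- and 9.33 in those titled GFP+. Lower in libraries titled GFP- in vehicle pools were also 4 of 4 measured progenitor markers, 6 of 6 microvillar markers, 5 of 6 sustentacular markers and 5 of 8 markers of immature olfactory neurons. Of 12 markers of mature olfactory neurons 1 was higher, Ano2, and 0 were lower. The mean level of that list was 16.53 to 16.60 in odor libraries titled GFP- and 16.30 to 16.51 in those titled GFP+, and 16.50 to 16.61 in vehicle libraries titled GFP- and 16.41 to 16.48 in those titled GFP+. The part of these other cells in the gate ratios of the receptors was not tested.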

How the data were processed

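RNA of sorted cells was measured on 16 Clariom S arrays. The deposited values are on a log2 scale, and per the submitters' processing notes they come from Affymetrix Expression Console. Its version, the summarisation and the build used are not given in the sources read here. Spike-in controls had means of 8.60, 10.44, 11.64 and 13.31, which fits a log2 scale, and library medians lay between 5.40 and 5.65. The number of arrays limits the precision, since an array has no depth.

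From 28846 probe sets, 94 controls and 6546 whose ID holds neg or pos were removed. A single gene was named for 19572 of the rest, several for 0 and none for 2634. Where a gene had several probe sets the brightest on average stayed (67 were set aside), and 19505 genes were tested. A receptor value was below the guide when it was under the 95th percentile of 321 vomeronasal receptor genes of its library.

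Gate ratios and their difference came from limma 3.58.1 (R 4.3.3; lmFit, eBayes), fitted to the 16 libraries with pool as a fixed block. Odor and vehicle within a gate were fitted to 8 libraries with no block. Tests were two-sided, p-values were adjusted by Benjamini-Hochberg over 19505 genes, and the threshold was 0.05. The exact permutation test planned for single receptors is not reported, since those receptors were picked by the same difference. Folds given as "at least" set the brighter gate against the guide.

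The receptors and gene lists were chosen with earlier results of these data known. The rule for named receptors took the 10 largest rises and 10 largest falls in vehicle pools, the 5 with the highest mean, the 5 smallest p of the difference, the 3 smallest p in each gate and the ends of each cluster. Its part on pairs by protein identity was not applied, since no protein table was used here. The labels' count of mice was read to mean that a pool's gates share their 3 mice. Their deviations from group means had correlations of 0.135 to 0.287 in odor pools and 0.098 to 0.201 in vehicle pools. Same-numbered odor and vehicle libraries had 0.157 to 0.210 in the gate titled GFP+ and 0.088 to 0.161 in the gate titled GFP-. Replicates within a group correlated at 0.9896 or more.

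On simulated data, where 200 of 19505 genes were changed, the fit of the gate ratio in vehicle pools found 71.6% of changes of 1 on the log2 scale and 100% of changes of 2. For odor in libraries titled GFP+ it found 59.7% and 97%.

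Alternatives were fits without the pool block or with the replicate number as a block, centring on each library's median or on the median of all odorant receptors (the second chosen after seeing the data), quantile normalization, a filter on dim genes, eBayes with trend and robust, every probe set kept, and leaving out each pool.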

Additional observations from a re-analysis of the deposited data

Results flagged for a closer look

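Within each group of 4 libraries, the highest or lowest library was compared with the others by Dixon's gap ratio at its 95% critical value. Over 40 named receptors in 4 groups, 160 checks, 9 lay above it, and chance alone gives about 1 in 20. Olfr323 stood apart in both gates of odor pool 1, at 10.006 in the library titled GFP- (the others 4.10 to 4.82) and at 7.012 in the library titled GFP+ (the others 4.10 to 4.24). Odor pool 3 was low for Olfr1382 in the library titled GFP-, at 10.917, with the others at 11.77 to 11.92. Vehicle pool 4 was low for Olfr1384 in the library titled GFP-, at 4.767, with the others at 5.32 to 5.40.

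Olfr328 stood apart in separate groups: odor pool 2 was low among libraries titled GFP-, at 6.474 (the others 7.07 to 7.14), and vehicle pool 3 was low among libraries titled GFP+, at 11.54 (the others 12.74 to 12.78). Leaving out any 1 pool kept its calls and their direction. Vehicle pool 4 was high for Olfr403 among libraries titled GFP+, at 12.385 (the others 11.81 to 11.90), and vehicle pool 1 was low there for Olfr380, at 6.73 (the others 8.01 to 8.22). Odor pool 1 was high for Olfr398 among libraries titled GFP+, at 11.989 (the others 10.863 to 10.996).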

How the results depend on the processing

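The counts of receptors called between the gates stayed within 1.5 times those of the values as deposited (21 higher and 29 lower in odor pools, 19 higher and 31 lower in vehicle pools) under every alternative run. Without the replicate block of pools they were 17 higher and 28 lower in odor pools and 15 higher and 27 lower in vehicle pools, with the calls of Olfr54 lost in both (adjusted p = 0.211 in odor pools and 0.087 in vehicle pools, limma). Each library centred on its own median gave 27 higher and 26 lower in odor pools and 28 higher and 26 lower in vehicle pools, so that 50.9% and 51.9% of the receptors' calls were higher, against 42% and 38% as deposited. That centring called 12174 of all genes in odor pools and 12023 in vehicle pools, against 3521 and 3156. Of these calls over all genes 87.3% were higher in each treatment, against 43.3% in odor pools and 38.5% in vehicle pools as deposited. Centring on the median of all odorant receptors, chosen after seeing the data, gave 16 higher and 33 lower in odor pools and 19 higher and 31 lower in vehicle pools. Leaving out each pool gave 16 to 21 higher and 25 to 29 lower in odor pools, and 17 to 20 higher and 24 to 30 lower in vehicle pools. The replicate number of the titles as a replicate block called 0 receptors for the difference and for odor in either gate, as without it. Over 40 named receptors, 1305 values kept their direction and their side of the threshold, 47 lost a call, 5 gained one and 11 turned, none of which had been called as deposited. On each library's own median Olfr1396 had 0.0705 in vehicle pools and Olfr394 had 0.0298 in odor pools. With quantile normalization Olfr225 had -0.0381 in odor pools and -0.0378 in vehicle pools. Centred on the receptors' median, Olfr225 had -0.1645 in odor pools and -0.0221 in vehicle pools, and Olfr1380 had -0.0359 in odor pools. Leaving out each pool gave odor ratios of -0.4418 (without odor pool 1) to 0.6446 for Olfr1380 and -0.1546 (without odor pool 1) to 0.1827 for Olfr225. Vehicle ratios ran between -0.0346 (without vehicle pool 2) and 0.1401 for Olfr225 and between -0.0587 (without vehicle pool 3) and 0.3026 for Olfr332. The causes were not tested. Of the 80 receptors 75 passed the filter on dim genes, and ratios of receptors near the background guide are compressed.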
